A study of Nymphaea colorata and Nymphaea micrantha with 16 samples.

Results

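The genes described here encode PsbO and PsbQ, extrinsic proteins of the oxygen-evolving complex of photosystem II. They are the 7 gene IDs (5 PsbO and 2 PsbQ) that the study's photosynthesis heat map names so, out of 31475 genes in the expression table. The study's gene ontology table, as far as it was read here, lists 5 of them under the oxygen-evolving complex, whereas NC6G0040420 and NC3G0221650 are PsbO by the heat map's naming alone. The leaves came from wild-type plants of the viviparous water lily Nymphaea micrantha (X-species), which forms plantlets on its leaves, and of the non-viviparous Nymphaea colorata (L-species). Leaf RNA was sequenced at 4 stages. The stages follow a leaf from below the water to the open blade. At stages 1 and 2 it was a closed roll under water, 1 to 2 cm and 4 to 6 cm in length. By stage 3 its tip touched the surface and the roll was partly open, and by stage 4 the blade lay open. The groups are called X1 to X4 and L1 to L4, each with 2 libraries, and each sample was a pool of leaves from 6 plants of its species.

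Photosystem II takes electrons from water at a cluster of manganese and calcium ions on the lumen side of the thylakoid membrane, and oxygen is released there. In plants the cluster is shielded by nuclear-encoded proteins that are imported into the thylakoid lumen. PsbO, the manganese-stabilizing protein, keeps the cluster intact, and PsbQ works with PsbP in keeping calcium and chloride ions at it. Plant genomes often hold more than 1 PsbO or PsbQ gene, so the question asked here was which copy carries the expression in each species and at each stage.

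Expression was given as FPKM, the reads on a gene divided by its length and by the library's total reads. Between 24815135 and 31440253 reads fell on genes in the X-species libraries, against 37118842 to 51396582 in the L-species libraries. The numbers of cleaned reads that the study reports overlap between the species. Between 14559 and 15143 genes reached 1 FPKM in the X-species libraries, against 15849 to 16339 in the L-species libraries. Genes known from leaves were abundant in every library. The gene named RuBP carboxylase in the study, NC7G0247280, which belongs to the enzyme that fixes carbon dioxide, ranked between 1 and 5 among all genes in the X-species libraries and between 1 and 33 in the L-species libraries. Over all tested genes the least alike pair was X2 (SD of the log2 difference 0.631, Pearson's r = 0.956), followed by X1 (0.528, r = 0.968). For L1 these values were 0.377 and 0.981. The L1 libraries did differ for genes known from leaves. L1 replicate 2 was the lowest L-species library for 3 of the 4 leaf genes checked. It had 1282 FPKM of NC7G0247280, against 4177 in L1 replicate 1, 94.4 against 226 FPKM of the antenna gene Lhcb5 (NC1G0088550), and 95.5 against 177 FPKM of the antenna gene Lhca3 (NC3G0227450). Of the antenna gene Lhcb3 (NC1G0135730) it had 186 FPKM, near the L-species median of 203, while L1 replicate 1, at 373, was the highest L-species library. Calls of PsbO and PsbQ copies that turn on the L1 libraries are therefore also given without replicate 2. In leaf samples of this kind fewer cells of a type and less RNA per cell cannot be told apart. Neither the match of each species' reads to the gene models nor the splitting of reads between near-identical copies was tested, so levels of single copies are uncertain to that extent.

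A single copy carried most of the PsbO expression in both species. NC6G0040420 made up 95.4% ± 1.91 of the summed PsbO FPKM in the X-species and 97.2% ± 1.79 in the L-species (SD, n = 8 libraries each), with 92.9% in the lowest library. The second copy, NC3G0221650, supplied 4.56% ± 1.93 in the X-species and 1.53% ± 1.43 in the L-species. These SDs span all 4 stages and so include differences between stages. By stage, the mean share of NC3G0221650 was 6.26%, 5.96%, 3.95% and 2.08% in X1 to X4. In L1 to L4 it was 2.94%, 1.03%, 1.36% and 0.78%, where the L1 libraries had 5.01% and 0.869%. At stage 4 NC6G0040420 made up 97.9% in X4 and 98.4% in L4. The other 3 PsbO copies, NC9G0272490, NC9G0272520 and NC1G0065180, stayed at or below 0.0486% each in all X-species libraries. In the L-species their highest shares were 0.834%, 2.77% and 0.135%, and the highest of these came from L1 replicate 2. Because all copies of a library enter its sum, these shares are given as a description.

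The PsbQ expression was also led by the same copy in all 16 libraries, but less completely. NC11G0115830 supplied 92.2% ± 2.31 of the summed PsbQ FPKM in the X-species and 83.4% ± 3.70 in the L-species (SD over all 4 stages, n = 8 each). NC1G0306410 supplied the rest, between 4.92% and 11.1% in the X-species libraries and between 12.0% and 21.0% in the L-species libraries. These ranges did not overlap. Per length, NC11G0115830 was 7.99 to 19.3 times as high as NC1G0306410 in the X-species (median 12.2), against 3.75 to 7.32 times in the L-species (median 4.65).

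**Figure D1:**
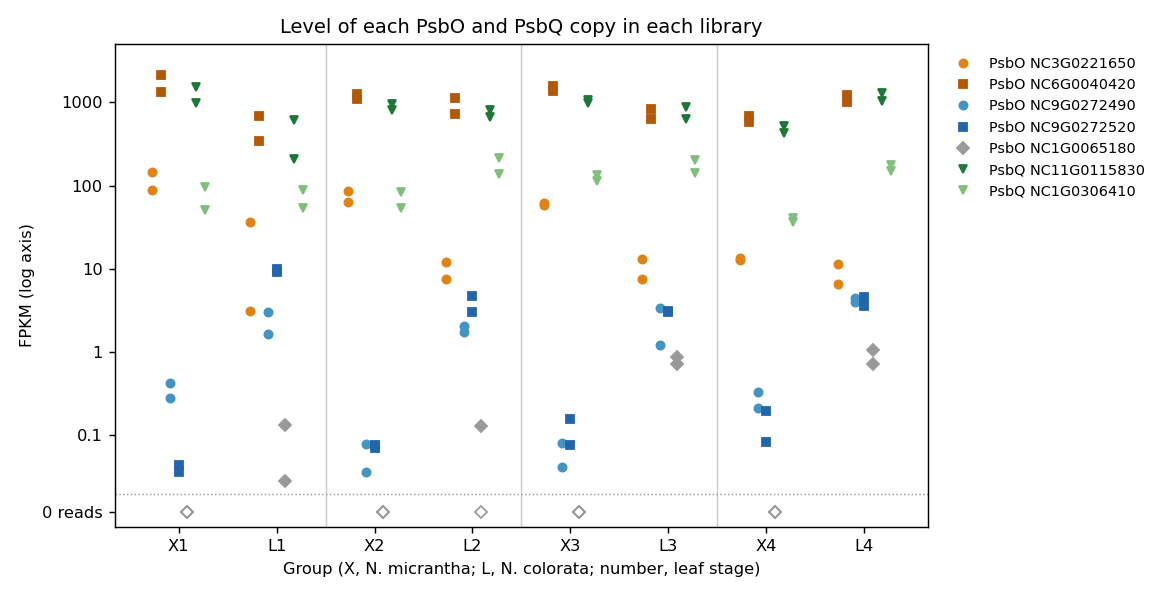
FPKM of the 5 PsbO and 2 PsbQ copies on a log axis, with 1 point for each library and groups by species and stage; open diamonds under the dotted line are libraries with 0 reads. NC6G0040420 and NC11G0115830 lie at 206 FPKM or more in all 16 libraries, while NC9G0272490 and NC9G0272520 lie below 0.5 FPKM in all X-species libraries and above 1 FPKM in all L-species libraries.

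The leading PsbO copy, NC6G0040420, was among the most abundant transcripts of the leaf, ranking between 23 and 88 in the X-species libraries and between 43 and 234 in the L-species libraries. In the X-species it had 1341 and 2128 FPKM at stage 1, 1269 and 1106 at stage 2, 1368 and 1582 at stage 3, and 674 and 574 at stage 4. In the L-species it had 688 and 343 FPKM at stage 1, 725 and 1132 at stage 2, 835 and 626 at stage 3, and 1234 and 1015 at stage 4. The X-species libraries thus lay above those of the L-species at stages 1 and 3 and below them at stage 4, and at stage 2 the groups overlapped. The stages also ran opposite ways: X4 was the lowest X-species group and L4 the highest L-species group.

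The second PsbO copy, NC3G0221650, showed its highest values in young X-species leaves. The X-species libraries had 88.3 and 144 FPKM at stage 1, 63.8 and 85.0 at stage 2, 62.4 and 58.0 at stage 3, and 12.9 and 13.4 at stage 4. The L-species libraries had 36.9 and 3.12 FPKM at stage 1, 7.45 and 12.1 at stage 2, 13.3 and 7.50 at stage 3, and 11.5 and 6.53 at stage 4. All X-species libraries of stages 1 to 3 lay above all L-species libraries, and at stage 4 the X-species values lay just above those of L4. The L1 libraries differed 11.8-fold from each other, more than for any other PsbO or PsbQ copy with reads in both libraries of a group.

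NC11G0115830, the leading PsbQ copy, followed much the same course as the leading PsbO copy. It had 969.6 and 1516 FPKM in X1, 808 and 944 in X2, 991 and 1060.2 in X3, and 513 and 432 in X4. The L-species values were 612 and 206 FPKM in L1, 656 and 813 in L2, 873 and 637 in L3, and 1297 and 1041 in L4. Here too the X-species was above the L-species at stages 1 and 3 without overlap, the groups overlapped at stage 2, and X4 was below L4.

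The minor PsbQ copy, NC1G0306410, had another pattern. X-species libraries had 50.1 and 95.9 FPKM at stage 1, 83.3 and 53.5 at stage 2, 113 and 133 at stage 3, and 41.2 and 36.2 at stage 4. L-species libraries had 88.4 and 53.2 FPKM at stage 1, 138 and 217 at stage 2, 199.9 and 140.0 at stage 3, and 177 and 148 at stage 4. The species overlapped at stage 1, and from stage 2 on all X-species libraries lay below the L-species libraries of their stage. The study's gene ontology (GO) annotation, as far as it was read here, lists NC1G0306410 under calcium ion binding and thylakoid membrane. It lists NC11G0115830 under electron transport chain and thylakoid lumen. Terms may be missing for either copy, since a shortened version was read.

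**Figure D2:**
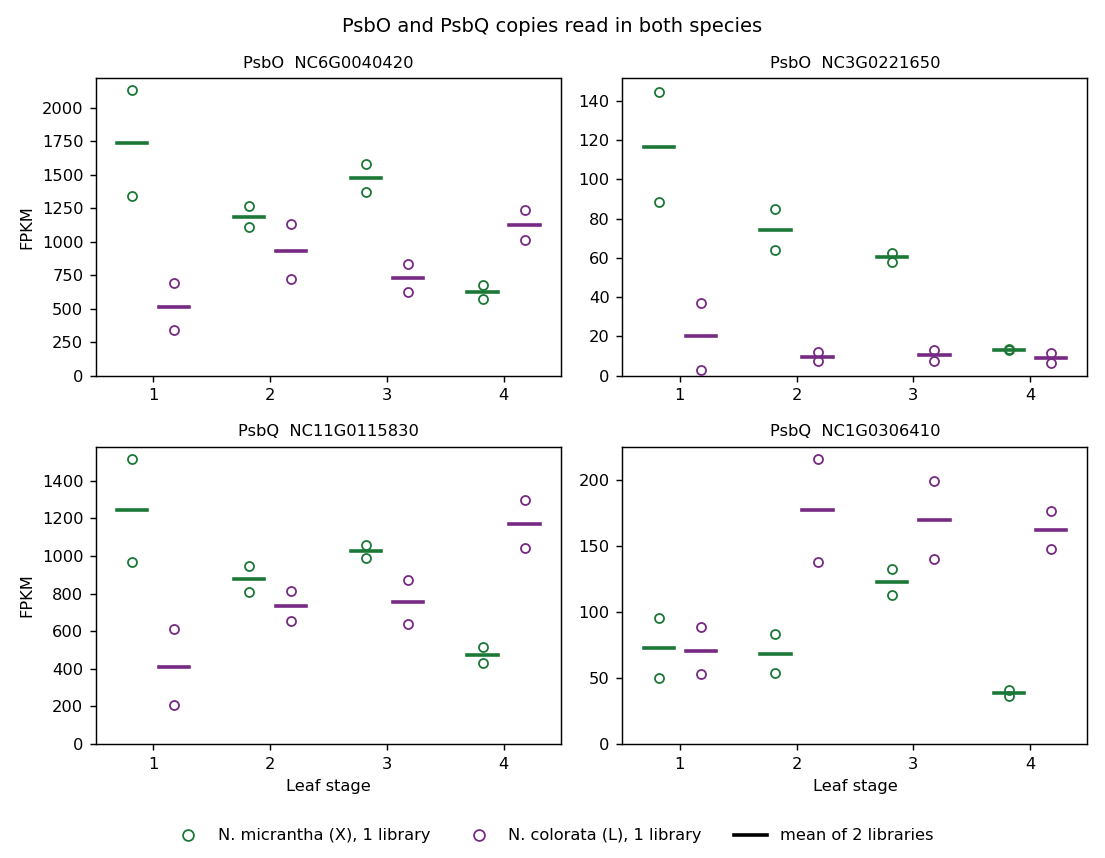
FPKM by leaf stage of the PsbO copies NC6G0040420 and NC3G0221650 and the PsbQ copies NC11G0115830 and NC1G0306410; each circle is 1 library and each bar the mean of 2 libraries. In NC6G0040420 and NC11G0115830 the X4 libraries (674 and 574, and 513 and 432 FPKM) are below the L4 libraries (1234 and 1015, and 1297 and 1041 FPKM).

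The 3 remaining PsbO copies were read mainly in the L-species. NC9G0272490 had 36 reads over all X-species libraries (1 to 11 in each), against 801 over all L-species libraries (45 to 169 in each). As a ratio of reads set against the library totals, X over L was 0.0694 (exact 95% interval 0.0482 to 0.0968, counting error only). Its FPKM lay between 0.0367 and 0.423 in the X-species. In the L-species it was 1.66 and 3.00 at stage 1, 2.07 and 1.73 at stage 2, 1.22 and 3.42 at stage 3, and 4.02 and 4.52 at stage 4. The highest L-species values were thus those of unfolded leaves, and the species did not overlap at any stage.

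NC9G0272520 had 19 reads over the X-species libraries (1 to 5 in each) and 1673 over the L-species libraries (102 to 424 in each), a ratio of 0.0175 (exact 95% interval 0.0105 to 0.0275). Its X-species values were 0.0367 to 0.199 FPKM. In the L-species it had 9.08 and 9.97 FPKM at stage 1, 4.77 and 3.01 at stage 2, 3.10 and 3.02 at stage 3, and 3.56 and 4.59 at stage 4. It was therefore the PsbO copy whose L-species values were highest in the youngest leaves and did not overlap those of the later stages.

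NC1G0065180 had 0 reads in all 8 X-species libraries. In the L-species it had 1 and 4 reads at stage 1, 0 and 4 at stage 2, 21 and 22 at stage 3, and 20 and 31 at stage 4, which came to 1.05 FPKM at most. Set against a floor of 3 reads over the X-species libraries of a stage, it was at least 10.1-fold lower in X3 than in L3 and at least 11.1-fold lower in X4 than in L4. At stages 1 and 2 both species were near the floor. This copy reached 1 FPKM in 1 library and so did not enter the tests, and 6 of the 7 genes did. The study lists NC9G0272490, NC9G0272520 and NC1G0065180 under the GO terms for photosystem II assembly and stabilization.

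**Figure D3:**
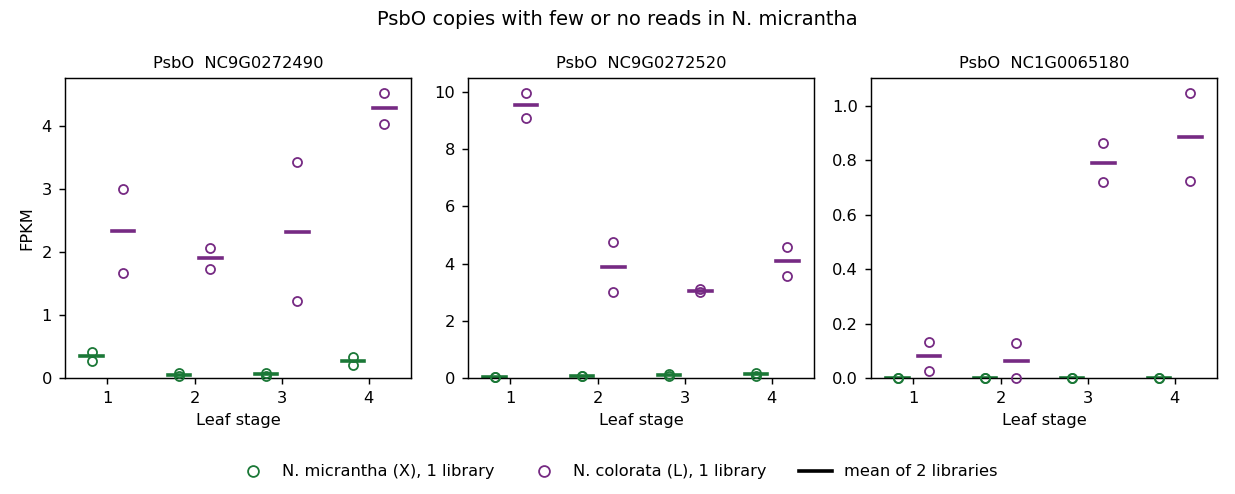
FPKM by leaf stage of the PsbO copies NC9G0272490, NC9G0272520 and NC1G0065180; each circle is 1 library and each bar the mean of 2 libraries. The X-species libraries lie at 0.423 FPKM or less, and the L-species libraries of NC9G0272520 reach 9.97 FPKM at stage 1.

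Differences between the species were tested at each stage with limma on log2(FPKM + 1) over 18160 genes. Calls required a Benjamini-Hochberg adjusted p below 0.05 together with a log2 fold change of 1 or more in either direction. On this scale the fold changes of low genes are understated. The study chose these genes among those that differed between the species in these same samples, so their counts are not independent evidence of a direction. At stage 1, 5 of the 6 tested genes were called, 3 higher and 2 lower in the X-species, where 28.0% of all tested genes were called (7.56% higher and 20.4% lower). At stage 2 it was 4 of 6, 1 higher and 3 lower, beside 25.3% of all genes (6.18% higher and 19.1% lower). At stage 3 it was 4 of 6, 2 higher and 2 lower, beside 28.8% of all genes (6.57% higher and 22.2% lower). At stage 4 all 4 called genes were lower, beside 31.3% of all genes (12.3% higher and 19.0% lower). Taken over every tested gene, the median difference was −0.23, −0.18, −0.30 and 0.0002 on the log2 scale at stages 1 to 4. With libraries scaled by median ratios it was −0.07, −0.04, −0.09 and −0.01, and no tested PsbO or PsbQ copy changed its direction. With only the 4 libraries of stage 1 in the fit, the 3 copies called higher there had adjusted p = 0.0531, 0.0884 and 0.0911 and the count was 2.

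NC6G0040420 was higher in X1 than in L1, with a log2 fold change of 1.80 (SE 0.37, limma adjusted p = 0.00167), and higher in X3 than in L3 by 1.02 (adjusted p = 0.0355). At stage 2 the difference was 0.39 (adjusted p = 0.421) and at stage 4 it was −0.85 (adjusted p = 0.0707), neither of them called. Without L1 replicate 2 the stage 1 value was 1.30 (adjusted p = 0.0247). The stage 3 call was lost when any of the 4 libraries of that stage was left out (adjusted p = 0.0522 to 0.189) or no filter was used (adjusted p = 0.0652).

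NC3G0221650 was higher in the X-species at stage 1 (3.19, SE 0.73, limma adjusted p = 0.00351), stage 2 (2.83, adjusted p = 0.00779) and stage 3 (2.47, adjusted p = 0.0142). At stage 4 its difference was 0.54 (adjusted p = 0.555). The stage 1 value was 4.79 without L1 replicate 1 and 1.59 without L1 replicate 2. The call was lost at stage 2 without L2 replicate 1 (adjusted p = 0.0578). At stage 3 it was lost without L3 replicate 2 (adjusted p = 0.0949), X3 replicate 1 (adjusted p = 0.0627) or X3 replicate 2 (adjusted p = 0.0554).

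The L-species-biased copies were lower in the X-species at every stage. For NC9G0272490 the log2 fold changes were −1.27, −1.45, −1.56 and −2.05 at stages 1 to 4 (limma adjusted p = 0.00225, 0.000994, 0.000533 and 5.73e-05). For NC9G0272520 they were −3.34, −2.16, −1.86 and −2.15 (adjusted p = 3.72e-08, 1.52e-06, 5.33e-06 and 1.37e-06). The pseudocount shortens these: fitting the recovered reads themselves with voom gave −2.59, −4.69, −4.67 and −3.88 for NC9G0272490, and −7.30, −5.39, −4.56 and −4.76 for NC9G0272520. The stage 1 difference of NC9G0272490 was −0.98 without L1 replicate 2, just under the fold threshold.

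Of the PsbQ copies, NC11G0115830 was higher in X1 than in L1 by 1.77 (SE 0.42, limma adjusted p = 0.00444) and lower in X4 than in L4 (−1.30, adjusted p = 0.0207). Between these stages its differences of 0.26 and 0.46 were not called (adjusted p = 0.653 and 0.390). Without L1 replicate 2 the stage 1 difference was 0.99 and no longer called. The stage 4 call was lost without L4 replicate 1 (adjusted p = 0.112), X4 replicate 1 (adjusted p = 0.0526) or X4 replicate 2 (adjusted p = 0.105).

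NC1G0306410 was lower in the X-species at stage 2 (−1.36, limma adjusted p = 0.00754) and at stage 4 (−2.04, adjusted p = 0.000405). Its values at stages 1 and 3 were 0.02 and −0.45 (adjusted p = 0.977 and 0.312). The stage 4 call held when each library was left out in turn (−2.17 to −1.91). The stage 2 call was lost without L2 replicate 2 (adjusted p = 0.0800), without X2 replicate 2 (adjusted p = 0.0635) or with only the stage 2 libraries in the fit (adjusted p = 0.0578).

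**Figure D4:**
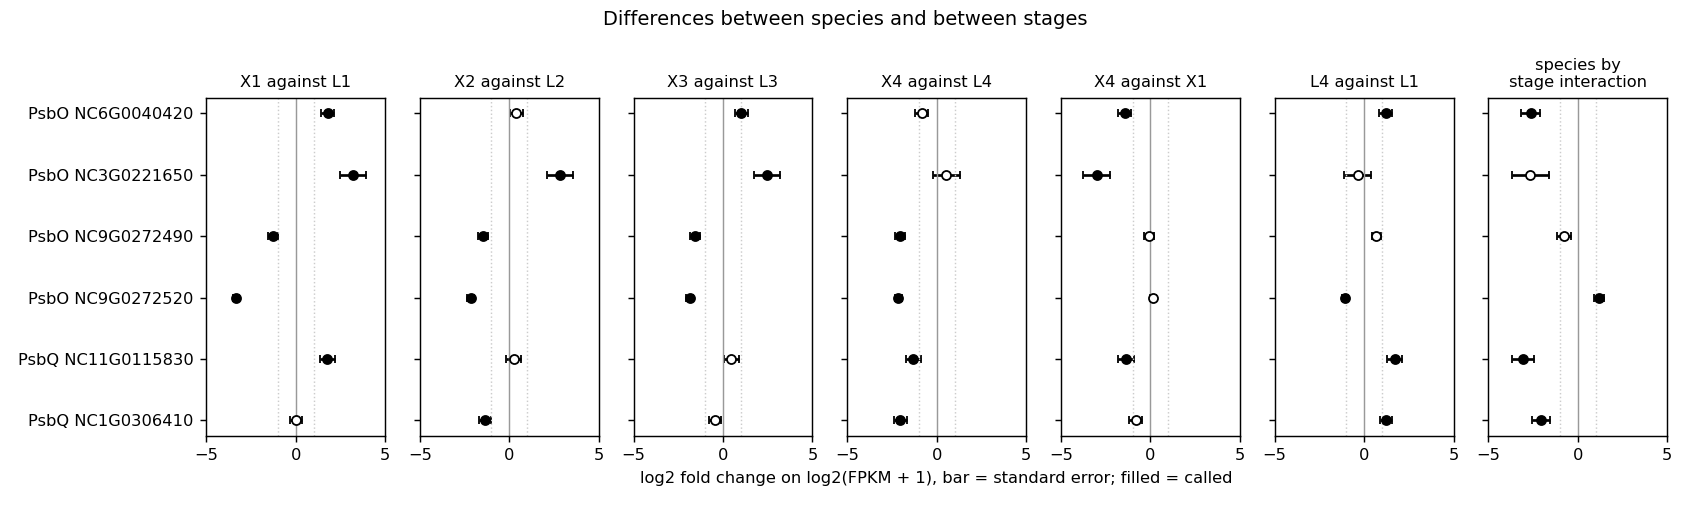
Log2 fold changes on log2(FPKM + 1) of the 6 tested PsbO and PsbQ copies in 7 comparisons; bars are standard errors, filled points were called and dotted lines mark a fold change of 1 in size. The interaction is X4 minus X1 less L4 minus L1, where NC6G0040420 (−2.64), NC11G0115830 (−3.07) and NC1G0306410 (−2.05) lie on the negative side and NC9G0272520 (1.19) on the positive side.

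From the youngest to the unfolded leaves the leading copies moved in opposite directions in the species. In the X-species 3 of the 6 tested genes were called lower in X4 than in X1 and none higher, where 9.65% of all tested genes were called lower, 12.3% higher and 21.9% in either direction. NC6G0040420 fell (−1.44, limma adjusted p = 0.00825), as did NC3G0221650 (−3.01, adjusted p = 0.00622) and NC11G0115830 (−1.36, adjusted p = 0.0227). NC1G0306410 was not called (−0.83, adjusted p = 0.0846), nor were the copies with at most 11 reads in an X-species library, NC9G0272490 (−0.08) and NC9G0272520 (0.13). Without X1 replicate 2 or without X4 replicate 2 the count was 1, since NC6G0040420 (adjusted p = 0.0667 and 0.0611) and NC11G0115830 (adjusted p = 0.142 and 0.120) were no longer called. NC11G0115830 was also lost without X4 replicate 1 (adjusted p = 0.0626), and NC1G0306410 was called without X1 replicate 1 (−1.29, adjusted p = 0.0210). With only the X4 and X1 libraries in the fit the count was 1.

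In the L-species 3 of the 6 were called higher in L4 than in L1 and 1 lower, where 15.3% of all tested genes were called higher, 19.7% lower and 35.0% in either direction. NC6G0040420 rose by 1.20 (limma adjusted p = 0.0139), NC11G0115830 by 1.71 (adjusted p = 0.00414) and NC1G0306410 by 1.23 (adjusted p = 0.00964). NC9G0272520 fell (−1.06, adjusted p = 0.000343; −0.85 and not called with median-ratio scaling). NC9G0272490 had a difference of 0.69 (adjusted p = 0.0455), under the fold threshold. These calls rest largely on the L1 libraries. Without L1 replicate 2 the rises were 0.70, 0.92 and 0.86 (adjusted p = 0.163, 0.0492 and 0.107) and none was called. NC9G0272520 also came just short of the fold threshold, and the single call was NC3G0221650 (−1.96, adjusted p = 0.00294). That gene was −0.36 with all libraries (adjusted p = 0.701) and 1.23 without L1 replicate 1 (adjusted p = 0.0278), so its direction in the L-species was set by the library left out. Without L4 replicate 1 the count was also 1, and with only the L4 and L1 libraries in the fit it was 2.

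The difference between these courses was tested as the species by stage interaction, the change from stage 1 to stage 4 in the X-species minus that in the L-species. It was called for 4 of the 6 genes, 3 of them negative, where 9.88% of all tested genes were called negative, 15.0% positive and 24.9% in either direction. The interaction was −2.64 for NC6G0040420 (SE 0.52, limma adjusted p = 0.00291), −3.07 for NC11G0115830 (SE 0.60, adjusted p = 0.00270) and −2.05 for NC1G0306410 (SE 0.50, adjusted p = 0.00840). These 3 calls held whichever library was left out, at −3.14 to −2.14, −3.85 to −2.29 and −2.51 to −1.59. NC9G0272520 had an interaction of 1.19 (adjusted p = 0.00468), with 1 to 5 reads behind each X-species value, and 0.98, under the fold threshold, with median-ratio scaling. For NC3G0221650 the interaction of −2.64 was not called (SE 1.04, adjusted p = 0.0677), and it was −4.24 (adjusted p = 0.000477) without L1 replicate 1 and −1.04 without L1 replicate 2.

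The leading PsbO and PsbQ copies ran together from library to library. Pearson's r of log2(FPKM + 1) between NC6G0040420 and NC11G0115830 was 0.923 over the 16 libraries, 0.980 within the X-species and 0.953 within the L-species (8 libraries each). The points share species, stage and library, so these values are a description. NC3G0221650 ran with NC6G0040420 within the X-species (r = 0.924) and less so within the L-species (r = 0.419). For NC1G0306410 and NC11G0115830 r was 0.742 within the X-species and 0.864 within the L-species, but 0.489 over all 16 libraries. NC9G0272520 and NC1G0306410 ran opposite ways within the L-species (r = −0.925).

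**Figure D5:**
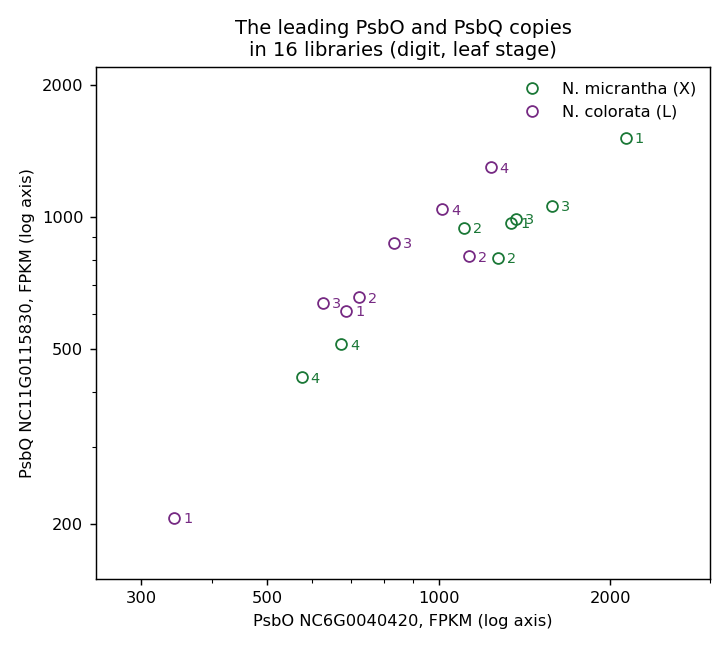
FPKM of the leading PsbQ copy NC11G0115830 against that of the leading PsbO copy NC6G0040420, both on log axes, with 1 circle for each of the 16 libraries and the leaf stage as a digit. The library at the lower left is L1 replicate 2 (343 and 206 FPKM), and Pearson's r of log2(FPKM + 1) is 0.923.

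The balance of PsbO to PsbQ differed between the libraries of the species. The summed PsbO FPKM was 1.19 to 1.50 times the summed PsbQ FPKM in the X-species libraries (median 1.34), against 0.795 to 1.38 times in the L-species libraries (median 0.899). The highest L-species value was that of L1 replicate 2, and the other 7 lay between 0.795 and 1.12, below every X-species library.

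Among all other tested genes, the closest course to NC6G0040420 was that of NC3G0227410 (r = 0.979 over 16 libraries), which the study lists under photosystem I electron transport, followed by NC4G0239400 (r = 0.977). For NC11G0115830 the closest were NC2G0126770 (r = 0.955) and NC13G0026790 (r = 0.941), the second of them listed under light harvesting in photosystem I. NC1G0306410 was closest to NC13G0026630 (r = 0.969) and NC1G0132830 (r = 0.964), and NC3G0221650 to NC1G0131720 (r = 0.927) and NC1G0134080 (r = 0.918). The copies biased to the L-species were closest to genes that were also near 0 in some libraries, NC9G0272490 to NC7G0051670 (r = 0.975) and NC9G0272520 to NC2G0190950 (r = 0.993).

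The study lists 9 further genes under the GO term for the oxygen-evolving complex, all of them tested. These were also drawn by the study from genes that differed in these samples. In X4 against L4, 6 of the 9 were lower and none higher, where 19.0% of all tested genes were called lower, and the median log2 fold change was −1.09 against 0.0002 over all genes. NC14G0281720 showed the lowest value (−1.79, limma adjusted p = 0.000322). In X1 against L1 none of the 9 was called (median 0.31), beside 28.0% of all tested genes. At stage 2 it was 2 of the 9, both lower, near the 19.1% of all tested genes called lower. At stage 3 it was none, where 22.2% of all tested genes were called lower. The interaction was called negative for 6 of the 9 (9.88% of all tested genes), with a median of −1.48 against 0.27 over all genes. In NC14G0281720 it was −2.28 (adjusted p = 0.00205). From stage 1 to stage 4, 2 fell in the X-species (NC12G0187860, −1.33, and NC14G0281720, −1.21), where 9.65% of all tested genes were called lower. In the L-species 3 rose, where 15.3% of all tested genes were called higher. The rise was 1.75 in NC1G0306430, which had 29.3 to 162 FPKM there. Over the settings and left-out libraries tried, between 3 and 8 of the 9 were lower in X4 than in L4, with 3 reached without X4 replicate 2, and 3 to 7 had a negative interaction, with 3 reached without L1 replicate 2, L4 replicate 1, X1 replicate 2 or X4 replicate 2. The falls in the X-species numbered 0 without X1 replicate 2 and 5 without X4 replicate 1, and the lower calls at stage 2 ran between 0 (without L2 replicate 2 or X2 replicate 2) and 3. The rises in the L-species numbered 1 without L1 replicate 2 and without L4 replicate 1.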

How the data were processed

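Poly(A) RNA of leaves was sequenced by the authors, and 16 libraries were used here, 2 for each species and stage, grouped by the library titles (0 columns of values were left unmapped). The study describes 3 biological repeats. Each sample was a mixture of leaves from 6 plants, and whether the repeats are independent pools is not given in the sources used here, so p-values measure the spread between these libraries, which may be technical. The submitters' processing notes name CASAVA 1.8, fastp 0.20.0, HISAT2 2.1.0, HTSeq 0.7.2 and Cufflinks 2.2.1. The paper also names Cufflinks and htseq-count, but describes a de novo transcript assembly with Trinity and Bowtie for comparing reads with the assembled transcripts. How these accounts go together is not given in the sources used here. Nor is it given which species' gene models the X-species reads were placed on. Which genome build and annotation the gene IDs come from is not given in the sources used here. The table deposited by the authors holds FPKM. Its values above 0 are whole reads (within 0.01 reads) scaled by gene length and library total in 99.98% of cases, which gave the reads behind each value. No position or sequence is printed, since the RefSeq table used here shares no ID with the file.

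Values were taken as log2(FPKM + 1) and genes that reached 1 FPKM in 2 or more libraries were tested with limma 3.58.1 in R 4.3.3 (eBayes with trend, 1 mean for each of the 8 groups, all libraries in the fit, Benjamini-Hochberg adjustment over 18160 genes). Intervals for read ratios are exact and cover counting error only. Scripts were tested on simulated data and used Python 3.11.15. The alternatives were pseudocount 0.1, no filter, median-ratio scaling, a replicate block, fits of the libraries compared only and leaving out each library. Limma's voom on the recovered reads and blocks with crossed numbers were added after seeing the data.

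The genes named are the 7 PsbO and PsbQ genes, the other genes listed by the study under the oxygen-evolving complex, up to 2 examples each (highest and lowest called value) of 4 related lists, the 2 genes most correlated with each tested member, and leaf genes as a check of the tissue. Members and lists were chosen with earlier results of these data known. The GO lists were read from a shortened table and overlap each other.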

Additional observations from a re-analysis of the deposited data

Results flagged for a closer look

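The change from stage 1 to stage 4 differed between the species by a test of the difference itself, limma's interaction term, in 4 PsbO and PsbQ copies. Of all tested genes, 9.88% were called negative, 15.0% positive and 24.9% in either direction. NC6G0040420 had 674 and 574 FPKM in X4 and 1341 and 2128 in X1, while it had 1234 and 1015 FPKM in L4 and 688 and 343 in L1, an interaction of −2.64 on the log2 scale. NC11G0115830, with 513 and 432 FPKM in X4, 969.6 and 1516 in X1, 1297 and 1041 in L4, and 612 and 206 in L1, had the most negative interaction, −3.07. In NC1G0306410 it was −2.05, and in NC9G0272520 it was 1.19. The value of NC9G0272520 rests on 1 to 5 reads in each X-species library, so it mainly restates the L-species fall (−1.06 in L4 against L1). L1 replicate 2 was the lowest library for NC6G0040420 and NC11G0115830, and without it their interactions stayed called.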

How the results depend on the processing

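Over settings other than leaving out a library, 265 of 276 values of the tested copies kept their direction and side of the threshold, 11 were no longer called and 0 reversed. With fits of the libraries compared only, the calls numbered 2 in X1 against L1, 1 in X4 against X1 and 2 in L4 against L1. Over all 18160 tested genes these fits called 4617, 2731 and 6308, against 5079, 3986 and 6363 as reported. The fold changes of the copies were the same in both fits, so calls were lost there through the adjusted p alone. For NC3G0221650 in X1 against L1 the value stayed 3.19, while limma's adjusted p was 0.0884 against 0.00351. These fits take the spread from the compared libraries only. Why the adjusted p rose was not tested. Leaving out each library gave 3 to 5 calls in X1 against L1, 3 to 4 in X2 against L2, 2 to 4 in X3 against L3, 3 to 4 in X4 against L4, 1 to 4 in X4 against X1, 1 to 5 in L4 against L1 and 4 to 5 for the interaction. Calls over all tested genes also moved with the library left out. With 1 library left in a group, no share is given beside these counts. Of 672 values of the copies from such fits, 641 kept their call. The 1 that reversed and was called was NC3G0221650 in L4 against L1, at 1.23 without L1 replicate 1 (−1.96 without L1 replicate 2). The cause was not tested. Changes of sign without a call were counted as kept, as for NC1G0306410 in X1 against L1, which ran from −0.44 to 0.48. Median-ratio scaling put NC9G0272520 under the fold threshold in L4 against L1 (−0.85) and in the interaction (0.98). It also moved the calls over all genes to 1736 higher and 3219 lower in X3 against L3 (1194 and 4034 as reported), 3270 and 2771 in L4 against L1 (2778 and 3585), and 2029 and 2184 for the interaction (2732 and 1795). Without the filter NC6G0040420 was not called in X3 against L3 (limma adjusted p = 0.0652), and the untested copy NC1G0065180 was at −0.84 and −0.91 in X3 against L3 and X4 against L4. Voom on the recovered reads called 6166 genes in X1 against L1 and 6891 in X4 against L4.

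The labels give same-numbered libraries only a number in common. The correlation of their deviations from the group means was −0.149 for X1 and L1, −0.492 for X2 and L2, −0.0130 for X3 and L3, −0.126 for X4 and L4, −0.165 for X4 and X1, and 0.0117 for L4 and L1. With 2 libraries in a group, a negative value means that libraries of opposite number deviated alike, most of all for X2 and L2. What they share was not tested. The replicate block gave 5, 4, 4, 4, 3, 4 and 4 calls among the tested copies in the 7 comparisons in the order above, the same counts as without it. Over all 18160 tested genes it gave 5055, 4583, 5218, 5660, 3974, 6364 and 4440 calls in the same order. Blocks with crossed numbers gave 5, 4, 4 and 3 calls among the copies in X1 against L1, X2 against L2, X4 against L4 and X4 against X1. Over all 18160 tested genes those blocks gave 5103, 4612, 5698 and 3982 calls. Low read numbers limit mainly NC9G0272490, NC9G0272520 and NC1G0065180, with 11 reads or fewer in each X-species library. Whether X-species reads match these gene models less well was not tested.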

Other observations

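Other genes that the study lists under photosystem II terms and the thylakoid lumen were compared in the same way, apart from the PsbO and PsbQ copies. These lists were drawn by the study from genes that differed in these samples and share genes, so their counts are a description. Of 12 genes listed under photosystem II, the water-splitting photosystem, 8 were higher and none lower in X1 than in L1 (median log2 fold change 1.60, against −0.23 over all tested genes, of which 7.56% were called higher), up to 2.98 in NC5G0051170. In X4 against L4, 11 of the 12 were lower and none higher (median −1.44, against 0.0002 over all, of which 19.0% were called lower and 12.3% higher), down to −5.46 in NC1G0107750, and the interaction was called negative for all 12 (median −2.98, against 0.27 over all, of which 9.88% were called negative), and for at least 10 of them under every setting and left-out library tried. From stage 1 to stage 4, 6 of the 12 fell in the X-species, where 9.65% of all tested genes were called lower, and 7 rose in the L-species, where 15.3% were called higher. The falls in the X-species numbered 2 with only the X4 and X1 libraries in the fit, and 6 was the highest count under any setting tried. The X1 against L1 count was 5 without X1 replicate 2, and the X4 against L4 count was 5 without X4 replicate 2 and 6 without L4 replicate 1. The 12 include NC3G0227450, the antenna gene named Lhca3 above, so the list is wider than the parts of photosystem II itself.

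Of 7 tested genes listed under photosystem II repair, the turnover of damaged reaction centres, 6 were lower in X4 than in L4 and none higher (median −1.64), again beside 19.0% of all tested genes called lower, 12.3% called higher and a median of 0.0002 over all, with NC14G0114720 at −2.66 and NC9G0147960 at −1.38. The counts ran between 6 and 7 over the settings tried. In X1 against L1 it was 1 higher and 1 lower, beside 7.56% and 20.4% of all tested genes. Of 16 other genes listed under thylakoid lumen, the compartment that holds PsbO and PsbQ, 13 were lower in X4 than in L4 and none higher (median −1.42), set against the same 19.0% called lower and median of 0.0002 over all genes, and 11 to 14 were lower over the settings tried. Their interaction was called negative for 11 of the 16, beside 9.88% of all tested genes, and for 7 without L1 replicate 2, L4 replicate 1, X1 replicate 2 or X4 replicate 2. The most negative interaction among the called genes (−3.33) was that of NC7G0247280, the RuBP carboxylase gene used above as a tissue check. The study's list holds it although it is named for the carbon-fixing enzyme, so this list too may be wider than its name. Of 3 other genes listed under photosystem II assembly, 2 were higher in X1 than in L1 (7.56% of all tested genes) and 2 were lower in X4 than in L4 (19.0% of all tested genes), or 1 without L4 replicate 2 or X4 replicate 2.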
